A study of Rattus norvegicus with 18 samples.

Results

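The 10 genes described here encode subunits of the AMPA and NMDA receptors, the ion channels that carry most fast excitatory transmission in the brain. They were chosen by name from the deposited count table, as the rows with the symbols Gria1, Gria2, Gria3, Gria4, Grin1, Grin2a, Grin2b, Grin2c, Grin2d and Grin3a, and all 10 were found among the 30735 genes of the table. Their measured values played no part in the rule. Grin3b, which encodes a further NMDA receptor subunit, is not among them, and its values are given beside the other receptor genes. RNA from the cerebral cortex of 18 adult Sprague Dawley rats was sequenced, 1 library per rat, with 6 rats in each group. The SAH 1d and SAH 7d groups were sampled 1 day and 7 days after subarachnoid hemorrhage (SAH), which was made by perforating an artery from inside the vessel, and the sham group had the surgery without the perforation. All rats were 8 to 10 weeks old and were anesthetized with pentobarbital. The sources used here give neither the day on which the sham rats were sampled nor the sex of the rats. The study's methods describe the whole cortex of the operated side, whereas the deposited descriptions name both sides. The deposited extraction text also speaks of mice, whereas the organism label, the study's methods and the gene identifiers are of rat. A bulk sample mixes all cortical cells, so fewer cells of a type and less RNA per cell cannot be told apart in any value below.

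AMPA receptors are tetramers of GluA subunits, encoded by Gria1 to Gria4, and open as soon as glutamate binds. The GluA2 subunit, from Gria2, makes the channel nearly impermeable to calcium after its transcript has been edited, so that receptors without it let calcium in. NMDA receptors need the GluN1 subunit, from Grin1, together with GluN2 or GluN3 subunits. They let calcium in when glutamate, a co-agonist such as D-serine and depolarization coincide, and their overactivation injures neurons in ischemia.

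At SAH 1d, the transcripts of 5 of the 10 subunits fell relative to sham, namely Gria2, Gria3, Gria4, Grin1 and Grin2a. The 3 AMPA subunits among them stood at 0.55 to 0.582 times the sham level, Grin2a at 0.629 times and Grin1 at 0.682 times. Of all 18444 genes tested, 10.5% were lower at SAH 1d by the same rule, which is an adjusted p under 0.05 in edgeR's quasi-likelihood test, and 14.9% were higher, 25.4% in all. At SAH 7d no subunit differed from sham by this rule, and 0.0% of all genes did. No subunit differed between SAH 7d and SAH 1d when all 12 libraries entered, against 1.37% of all genes. When library SAH 7d-5 was left out, Gria2, Gria3 and Gria4 were higher at SAH 7d than at SAH 1d, as were 3.18% of all genes.

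Promoter sequences were found in RefSeq (assembly GRCr8) for 5 of the 10 subunits, Gria4, Grin1, Grin2c, Grin2d and Grin3a. Those of Gria4 and Grin1 are printed because these genes fell at SAH 1d. Each runs from 250 bases before the start of the gene to 50 bases after it, on the minus strand, written 5′ to 3′. The Gria4 window is chr8:10319832-10320131 and the Grin1 window is chr3:28528705-28529004. Capitals mark a GC box.
Gria4: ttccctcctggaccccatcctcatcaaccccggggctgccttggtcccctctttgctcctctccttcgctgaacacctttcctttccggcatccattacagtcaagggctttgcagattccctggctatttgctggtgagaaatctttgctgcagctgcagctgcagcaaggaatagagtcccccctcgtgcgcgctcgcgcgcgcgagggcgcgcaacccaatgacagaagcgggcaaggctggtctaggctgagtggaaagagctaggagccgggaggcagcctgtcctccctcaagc
Grin1: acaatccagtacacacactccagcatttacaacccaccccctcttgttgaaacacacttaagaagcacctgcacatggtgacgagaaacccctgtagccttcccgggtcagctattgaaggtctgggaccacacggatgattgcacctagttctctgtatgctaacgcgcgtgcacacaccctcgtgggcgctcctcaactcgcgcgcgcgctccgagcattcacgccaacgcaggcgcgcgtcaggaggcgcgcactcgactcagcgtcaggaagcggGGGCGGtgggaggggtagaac
The capitals in Grin1 are the letters GGGCGG, a site of the kind that Sp1 factors bind, and lie 29 bases after the start. This was the only match in the 5 windows to any of 6 searched motifs, read on both strands. The GC box is in 33.1% of 33469 rat promoters of this length, and the TATA box TATAAA is in 14.2%. The other motifs are rarer, with TGACGTCA, the CREB site, in 1.83%, the NRF1 site in 0.852%, and the left and right parts of the REST site, TTCAGCACC and GGACAGCGC, in 0.356% and 0.415%. The match overlaps no other motif searched. The 5 windows are 58.7% to 60.7% G and C, against a median of 51.7% over all these promoters. A match is a description of the sequence, and a window without one says only that these letters are not in it.

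The AMPA subunits and Grin1 had the highest levels per transcript length. The authors' FPKM values, which are scaled to transcript length and to the mapped reads of a library, allow genes to be set side by side. In the sham group the mean FPKM was 98.8 ± 11.3 (SD, n = 6) for Gria2, 91.5 ± 13.0 for Grin1, 69.4 ± 10.4 for Gria3, 49.2 ± 6.58 for Gria4 and 39.1 ± 7.76 for Gria1. The remaining NMDA subunits were far lower, with 9.98 ± 1.83 for Grin2c, 3.42 ± 0.804 for Grin2a, 2.95 ± 0.372 for Grin3a, 1.76 ± 0.223 for Grin2b and 1.31 ± 0.148 for Grin2d. Neighbours in this order overlapped in their sham libraries, except that every Gria1 value was above every Grin2c value, every Grin2c value above every Grin2a value and every Grin3a value above every Grin2b value. Gria2 and Grin1 were in this order in 5 of the 6 sham libraries. Summed over subunits, AMPA transcripts were at 256 ± 31.7 FPKM in sham, 165 ± 40.5 at SAH 1d and 219 ± 65.3 at SAH 7d, and NMDA transcripts at 111 ± 12.5, 83.5 ± 16.3 and 90.4 ± 29.1, of which Grin1 was 80.7% to 82.2% on average.

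Some neighbours changed places between groups. At SAH 1d Grin1 (67.5 ± 13.7) stood above Gria2 (62.3 ± 17.3) in mean FPKM and in 5 of 6 libraries, with overlapping ranges. Gria1 (31.4 ± 8.28) and Gria4 (30.3 ± 6.17) were in that order in 3 of 6 libraries, so that this pair is not separable. At SAH 7d Gria2 was again first, at 84.3 ± 25.0 FPKM, above Grin1 in 6 of 6 libraries. Grin2a stood above Grin3a in sham, at 3.42 against 2.95 FPKM, and below it at SAH 1d (2.32 against 2.42) and SAH 7d (2.52 against 2.74), with overlapping ranges each time. In all 3 groups every Grin2c value lay above those of the other GluN2 and GluN3 subunits. These levels depend on the authors' transcript lengths. Counts and FPKM together imply 2.5 kb for Gria1, the shortest, and 6.97 kb for Gria2, the longest, and reads outside those models are in neither unit.

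**Figure D1:**
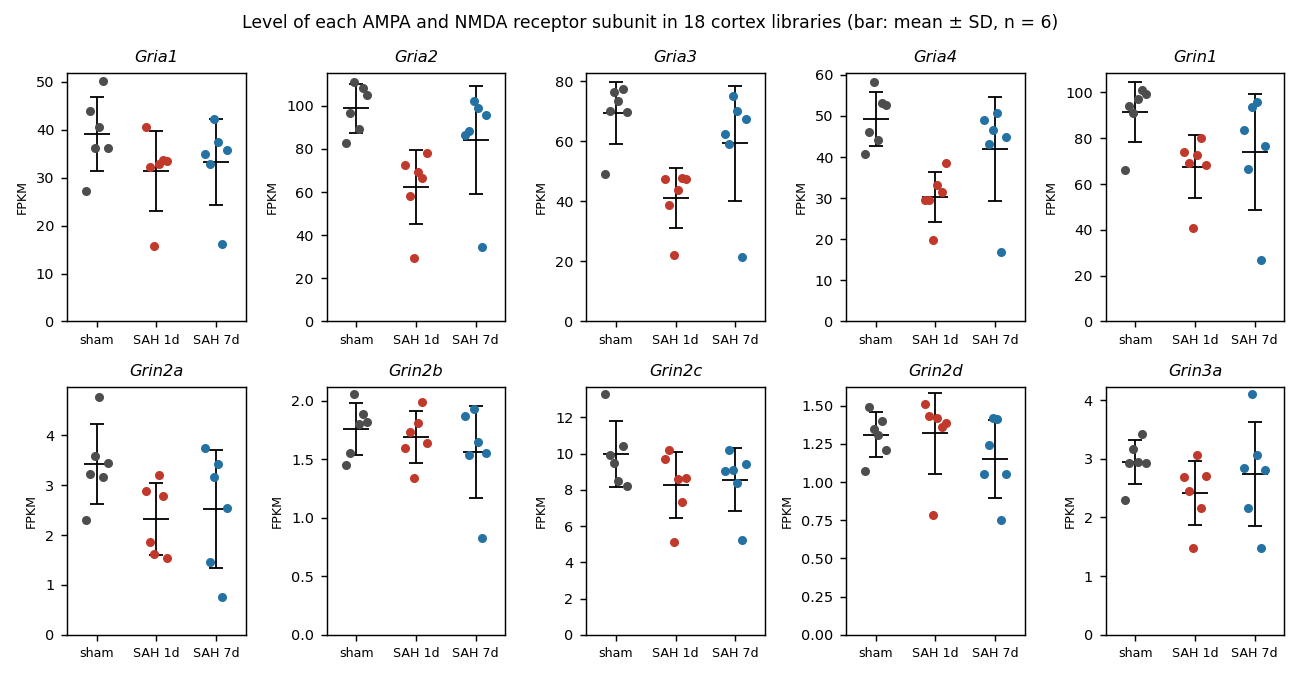
Level of each subunit in FPKM (vertical axes, from 0) in the sham, SAH 1d and SAH 7d libraries. Points are libraries and bars are the mean ± SD of 6. The SAH 1d points of Gria2 and Gria3 lie below all sham points, and 1 SAH 7d library lies far below the other 5 for the AMPA subunits.

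Before the comparisons, the libraries themselves differ. Total counts were 27270026 to 38271014 per library. SAH 1d-3 and SAH 7d-5 stood apart, with a median Spearman correlation to the rest of their own group of 0.939 and 0.925 over genes, against 0.961 to 0.964 for the other 16 libraries. The cortex label was checked with marker lists, given as the mean log2 CPM (counts scaled to a common library size) of the list. Pan-neuronal genes were at 9.10 to 9.57 in sham, 8.55 to 9.05 at SAH 1d and 7.85 to 9.5 at SAH 7d, where SAH 7d-5 was the lowest library. Striatal neuron genes, which mark tissue below the cortex, varied more, from 4.78 to 7.5 within sham. Choroid plexus genes were between -1.71 and 2.33 in sham and at 6.10 and 5.63 in 2 SAH 1d libraries, SAH 1d-6 and SAH 1d-4.

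Gria2, the subunit that controls calcium entry, was measured at 636 to 817 CPM in the sham libraries, with a median of 716. At SAH 1d it was measured at 202 to 511 CPM, with a median of 464, and at SAH 7d at 238 to 709, with a median of 652. Every SAH 1d library was below every sham library, whereas the SAH 7d libraries reached into the sham range. In SAH 1d versus sham Gria2 fell by 41.8%, with a log2 fold change of -0.78 ± 0.18 (SE, edgeR adjusted p = 0.00788).

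Gria3 was lower by a similar margin. Its sham libraries held 282 to 419 CPM, with a median of 387, and its SAH 1d libraries 112 to 246, with a median of 228. At SAH 7d the range was 111 to 389 CPM, with a median of 344. The sham and SAH 1d libraries did not overlap, although sham-1, at 282 CPM, was well below the other sham libraries. Gria3 fell by 45.0% at SAH 1d, a log2 fold change of -0.86 ± 0.17 (edgeR adjusted p = 0.00306).

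Gria4, which encodes a subunit enriched in some interneurons, gave the smallest adjusted p of the 10. The sham libraries held 153 to 206 CPM, with a median of 168, the SAH 1d libraries 64.1 to 121, with a median of 99.9, and the SAH 7d libraries 57.0 to 173, with a median of 156. Sham and SAH 1d did not overlap. Gria4 fell by 42.9% at SAH 1d, a log2 fold change of -0.81 ± 0.13 (edgeR adjusted p = 0.00133). Non-overlap with lower values at SAH 1d was seen for these 3 of the 10 subunits and for 5.41% of all tested genes.

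Gria1, the subunit inserted into synapses with activity, did not pass the test. Its range was 75.4 to 125 CPM in sham, with a median of 99.6, 38.6 to 96.5 at SAH 1d, with a median of 79.4, and 39.8 to 106 at SAH 7d, with a median of 89.7. All 6 SAH 1d libraries were below the sham mean, but the ranges overlapped. The log2 fold change at SAH 1d was -0.42 ± 0.18, with a 95% interval from -0.78 to -0.07 and an edgeR adjusted p of 0.103. Voom with quality weights, which gives libraries that stand apart less weight, called it (adjusted p = 0.0332).

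Grin1, the subunit that NMDA receptors cannot do without, fell at SAH 1d. The sham libraries held 326 to 467 CPM, with a median of 437, the SAH 1d libraries 180 to 353, with a median of 299, and the SAH 7d libraries 119 to 433, with a median of 362. Of the 6 SAH 1d libraries 5 were below every sham library, and the lowest sham library was sham-1. Grin1 fell by 31.8%, a log2 fold change of -0.55 ± 0.14 (edgeR adjusted p = 0.0126). The call was lost when all 18 libraries shared 1 fit (edgeR adjusted p = 0.106) and in limma on FPKM without a filter (adjusted p = 0.0794).

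Grin2a and Grin2b encode the main GluN2 subunits of the forebrain, GluN2A being the one that prevails in the adult. Grin2a was measured at 11.2 to 21.7 CPM in sham, with a median of 15.2, at 6.37 to 13.8 at SAH 1d, with a median of 9.86, and at 3.33 to 16.6 at SAH 7d, with a median of 12.8. The SAH 1d and sham ranges overlapped, with 3 SAH 1d libraries below every sham library. The log2 fold change at SAH 1d was -0.67 ± 0.21 (edgeR adjusted p = 0.0344). This call was weak, since leaving out any 1 of sham-2, sham-3, sham-4, sham-6, SAH 1d-2 and SAH 1d-6 took the adjusted p to between 0.0518 and 0.0814.

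Grin2b did not pass the test. It was measured at 8.54 to 11.8 CPM in sham, with a median of 10.2, at 7.18 to 10.7 at SAH 1d, with a median of 8.61, and at 4.48 to 10.5 at SAH 7d, with a median of 8.88. The ranges overlapped throughout. At SAH 1d the log2 fold change was -0.17 ± 0.12, with a 95% interval from -0.41 to 0.06 (edgeR adjusted p = 0.299).

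Grin2c, the GluN2 subunit best known from cerebellar granule cells and also expressed by astrocytes, ranged from 41.7 to 70.7 CPM in sham, from 24.2 to 45.7 at SAH 1d and from 24.8 to 49.6 at SAH 7d. The highest value was in sham-1, the library lowest for Grin1 and Gria3 within sham. At SAH 1d the log2 fold change was -0.39 ± 0.16 (edgeR adjusted p = 0.085).

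Grin2d, known from interneurons and from early development, had the log2 fold change nearest 0 at SAH 1d. It ranged from 6.43 to 8.23 CPM in sham, from 4.18 to 7.81 at SAH 1d and from 4.02 to 7.77 at SAH 7d. In SAH 1d only SAH 1d-3 was below the sham range. Its log2 fold change at SAH 1d was -0.10 ± 0.15 (edgeR adjusted p = 0.628) and 0.00 without SAH 1d-3. The RefSeq annotation places Grwd1 over the same stretch, at a mean of 345 counts a library, and the sources used here do not say whether the counting used strand, so reads of the pair may be mixed.

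Grin3a, which encodes the GluN3A subunit of NMDA receptors with low calcium permeability, ranged from 8.43 to 11.4 CPM in sham, from 4.84 to 9.95 at SAH 1d and from 4.87 to 13.6 at SAH 7d. All 6 SAH 1d libraries were below the sham mean. The log2 fold change at SAH 1d was -0.40 ± 0.15 and did not pass the test in edgeR (adjusted p = 0.0698), while the DESeq2 Wald test called it (adjusted p = 0.0378).

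Across the 10 subunits the log2 fold change in SAH 1d versus sham was below 0 for all 10, with a median of -0.49, and it was 0.76 for Grin3b (edgeR adjusted p = 0.0938). The 10 stand against 49.1% of all tested genes below 0 and a median of 0.01. The median was -0.79 for the 4 AMPA subunits and -0.40 for the 6 NMDA subunits. At an unadjusted p under 0.05, 8 subunits were lower, against 17.5% of all genes. No subunit reached the study's threshold for a differentially expressed gene, an adjusted p under 0.05 with a 2-fold change, which 6.64% of all genes did. Without SAH 1d-3 the same 5 subunits were called lower, as were 2406 of all 18444 genes, while 2846 genes were called higher. The falls of Gria2, Gria3, Gria4 and Grin1 were then -0.64 ± 0.09, -0.74 ± 0.10, -0.71 ± 0.10 and -0.45 ± 0.09 on the log2 scale.

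**Figure D2:**
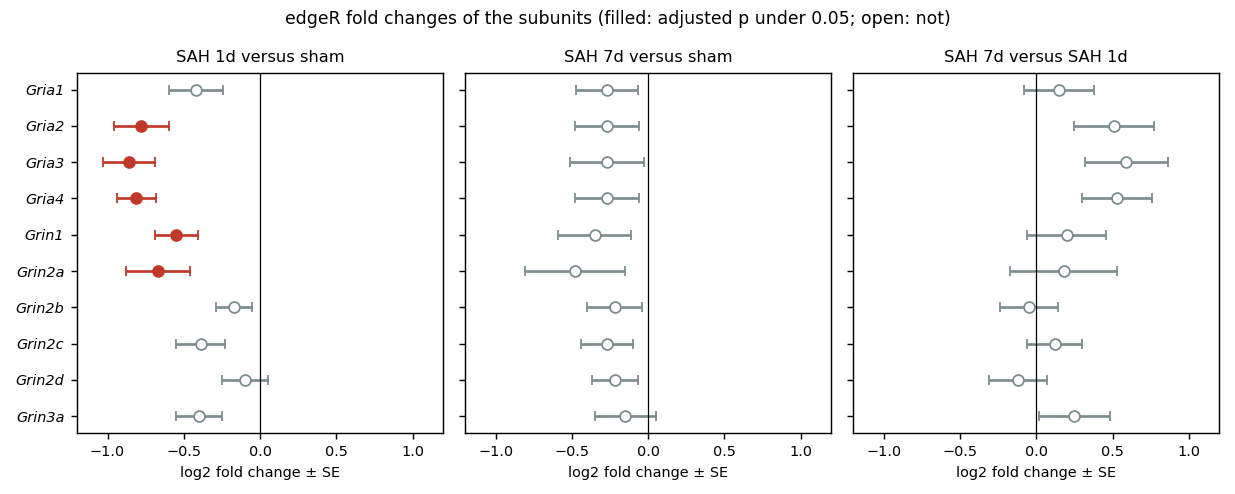
Log2 fold change (horizontal axes) of the 10 subunits in the 3 comparisons. Points are edgeR estimates, bars are the SE, and filled points have an adjusted p under 0.05. In SAH 1d versus sham, Gria2, Gria3, Gria4, Grin1 and Grin2a are filled and lie between -0.86 and -0.55. No point is filled in the other comparisons.

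The falls at SAH 1d moved with the neuronal markers. Of all tested genes, 10.5% were lower at SAH 1d and 14.9% higher. All 7 pan-neuronal genes were lower at SAH 1d, with a median log2 fold change of -0.58, and Tubb3, a neuronal tubulin, fell by 0.69 on the log2 scale. Without SAH 1d-3, 6 of the 7 were lower, as were 2406 of all 18444 genes, and the range with 1 library left out was 5 to 7. With all 18 libraries in 1 fit 2 were lower, and so were 953 of all genes, against 1936 in the main test. Of the excitatory neuron genes 3 of 5 were lower and of the inhibitory ones 2 of 6 (0 to 3 with 1 library left out), with medians of -0.56 and -0.30. Of the striatal neuron genes 2 of 5 were lower, with a median of -1.30, and this count ran from 1 to 4 when 1 library was left out. Among other cells, 3 of 4 genes of blood-derived myeloid cells were higher, as were 2 of 4 choroid plexus genes (0 to 4 with 1 library left out), whereas no gene of the 5 oligodendrocyte, 5 oligodendrocyte precursor and 4 endothelial genes passed the test. Of the 6 astrocyte genes, Gfap, which reactive astrocytes make in quantity, rose by 3.0 and Aldh1l1 fell by 0.85 on the log2 scale. Of the 6 microglial genes, whose median was 0.19, only P2ry12, a receptor of resting microglia, passed the test, with a fall of 1.19 on the log2 scale, whereas without SAH 1d-3 there were 3 higher and 1 lower. The part of these cell types in the subunit values was not tested.

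The subunits did not all follow the neuronal markers from library to library. Over the 18 libraries, the Pearson correlation of log2 CPM with the pan-neuronal mean was between 0.64 for Grin2c and 0.97 for Grin1. SAH 1d-3 and SAH 7d-5 are at the low end of both axes. Over the other 16 libraries the correlation was 0.95 for Gria3 and 0.93 for Grin1, but 0.50 for Grin2b, 0.04 for Grin2c and 0.02 for Grin2d. Points of 1 library share its depth and its tissue, and these correlations are descriptions.

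**Figure D3:**
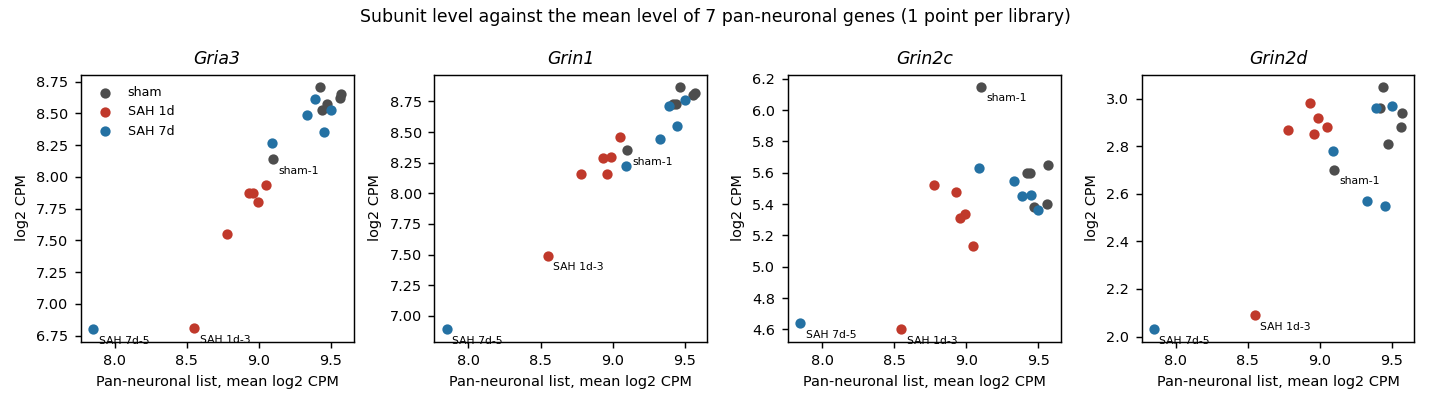
Log2 CPM of Gria3, Grin1, Grin2c and Grin2d (vertical axes) against the mean log2 CPM of 7 pan-neuronal genes (horizontal axes), 1 point per library, coloured by group. SAH 1d-3 and SAH 7d-5 are at the lower left of each panel. The other libraries line up for Gria3 and Grin1 and form no line for Grin2c and Grin2d.

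The genes whose level followed Gria2 most closely over the 18 libraries were Dlg3 (Pearson r = 0.978), which encodes the scaffold SAP102, Nlgn3 (0.974), a synaptic adhesion molecule, Gpm6a (0.972), a neuronal membrane glycoprotein, Slc2a13 (0.968), a myo-inositol transporter, and Lrrtm3 (0.968), an adhesion molecule of excitatory synapses. Without both libraries that stand apart these values were 0.901 to 0.981. For Grin1 they were Gabbr2 (0.992), a GABA-B receptor subunit, Brsk2 (0.982), a kinase of neuronal polarity, Rab6b (0.981), a neuronal trafficking GTPase, Ccdc184 (0.980) and Ptpn3 (0.979), a tyrosine phosphatase. Without both libraries they were 0.906 to 0.969. The log2 fold changes of these 10 genes at SAH 1d were -0.81 to -0.43, a direction that their choice over the same libraries fixes.

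At SAH 7d the subunits were not distinguishable from sham. The log2 fold changes ran from -0.48 for Grin2a to -0.15 for Grin3a, all 10 below 0, with a median of -0.27, against 50.6% of all genes below 0. No subunit passed edgeR's test and none had an unadjusted p under 0.05. Of all 18444 genes 0.0% passed, while 15.4% had an unadjusted p under 0.05. The DESeq2 Wald test called 459 genes and no subunit among them. The 95% intervals of the AMPA subunits were wide, from -0.69 to 0.15 for Gria2 and from -0.73 to 0.20 for Gria3.

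Library SAH 7d-5 was the lowest for every subunit at SAH 7d. In it the subunits stood at 26.1% to 59.3% of the mean of the other 5 SAH 7d libraries, with Gria2 at 238 CPM where the others held 606 to 709. It also had the lowest pan-neuronal mean, 7.85, and the highest microglial and myeloid means, 7.81 and 5.87 log2 CPM, against microglial means of 4.67 to 5.62 in sham. Without it, the log2 fold changes against sham were -0.10 ± 0.08 for Gria2, -0.09 ± 0.10 for Gria3, -0.10 ± 0.08 for Gria4 and -0.17 ± 0.11 for Grin1, with edgeR adjusted p from 0.555 to 0.773.

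In SAH 7d versus SAH 1d, which asks whether the levels at 7 days differ from those at 1 day, no subunit passed the test, against 1.37% of all genes, with 0.282% higher at SAH 7d. For each of Gria2, Gria3 and Gria4, 5 of the 6 SAH 7d libraries were above every SAH 1d library. How many of all genes show this pattern was not counted. The log2 fold changes of these subunits were 0.51 ± 0.26, 0.59 ± 0.27 and 0.53 ± 0.23, with edgeR adjusted p of 0.404, 0.327 and 0.305. The unadjusted p was 0.0788, 0.0459 and 0.0387, and 6.66% of all genes were higher at an unadjusted p under 0.05. The remaining 7 subunits were between -0.12 and 0.25.

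With SAH 7d-5 left out, these 3 AMPA subunits passed the test. Gria2 was higher at SAH 7d by 0.67 ± 0.19 (edgeR adjusted p = 0.0481), Gria3 by 0.76 ± 0.17 (adjusted p = 0.0185) and Gria4 by 0.69 ± 0.13 (adjusted p = 0.0109), and no other subunit passed. Of all genes, 3.18% were higher by this rule. With SAH 1d-3 left out too, the values were 0.53, 0.64 and 0.60, against 6.13% of all genes called higher, and voom with quality weights on all 12 libraries called the same 3, against 6.37% of all genes. Leaving out SAH 1d-3 alone gave no call. Pan-neuronal genes moved alongside, with 3 of 7 higher without SAH 7d-5 and a median of 0.47, and their part was not tested.

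**Figure D4:**
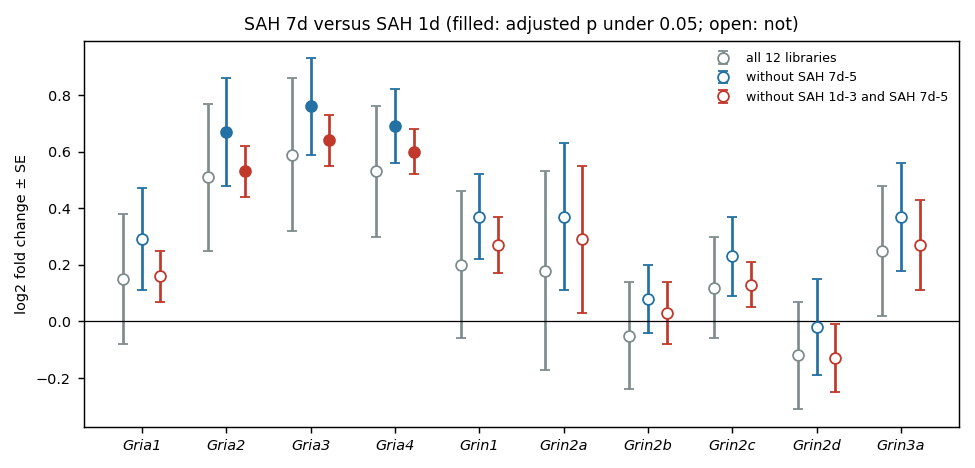
Log2 fold change ± SE of the 10 subunits in SAH 7d versus SAH 1d (vertical axis) with all 12 libraries (grey), with SAH 7d-5 left out (blue), and with SAH 1d-3 left out too (red). Filled points have an edgeR adjusted p under 0.05. Gria2, Gria3 and Gria4 are filled in both reduced sets, at 0.53 to 0.76, and no subunit is filled with all libraries.

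Whether the make-up of the receptors' transcripts shifted was asked with ratios of counts within a library, which do not depend on library size. There are 9 such tests, each an exact two-sided permutation over all splits of 6 against 6 that can give no p below 0.00216, and p-values were adjusted over the 9. The log2 ratio of Gria1 to Gria2 was -2.84 ± 0.25 (SD, n = 6) in sham, -2.46 ± 0.15 at SAH 1d and -2.80 ± 0.12 at SAH 7d. The sham libraries fell into a lower set of 3 (-3.10, -3.08 and -3.02) and a higher set of 3 (-2.62, -2.61 and -2.58), and the SAH 1d libraries ran from -2.69 to -2.31. The ratio was higher at SAH 1d than in sham by 0.38 (exact permutation p = 0.0152, adjusted p = 0.0455) and lower at SAH 7d than at SAH 1d by 0.34 (exact permutation p = 0.00433, adjusted p = 0.039), and SAH 7d differed from sham by 0.04 (exact permutation p = 0.738). In FPKM, Gria1 made up 15.2% ± 1.99 of the 4 AMPA transcripts in sham, 19.0% ± 1.62 at SAH 1d and 15.5% ± 1.36 at SAH 7d.

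The Gria1 to Gria2 calls were sensitive to single libraries. The SAH 1d versus sham call held only without sham-2, sham-4, sham-5 or SAH 1d-6, and leaving out any other library gave an adjusted exact p of 0.0536 to 0.0974. The SAH 7d versus SAH 1d call held only without SAH 1d-6, SAH 7d-4 or SAH 7d-5, and otherwise gave 0.0519 to 0.0779. The size of the differences moved little, from 0.33 to 0.43 and from -0.39 to -0.31.

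The ratio of Grin1 to Gria2 was -0.76 ± 0.17 in sham, -0.50 ± 0.23 at SAH 1d and -0.86 ± 0.17 at SAH 7d. It was lower at SAH 7d than at SAH 1d by 0.37 (exact permutation p = 0.0152, adjusted p = 0.0455), a call that held only when SAH 1d-6 or SAH 7d-4 was the library left out, with 0.0519 to 0.0974 otherwise. SAH 1d was higher than sham by 0.26 (exact permutation p = 0.0498, adjusted p = 0.0896), which passed only without SAH 1d-6 (0.33, adjusted exact p = 0.0292). The Grin2a to Grin2b ratio, which rises as the cortex matures, was 0.63 ± 0.27 in sham, 0.10 ± 0.38 at SAH 1d and 0.24 ± 0.52 at SAH 7d. All 6 SAH 1d libraries were below the sham mean, but the difference of -0.53 did not pass (exact permutation p = 0.0238, adjusted p = 0.0536).

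**Figure D5:**
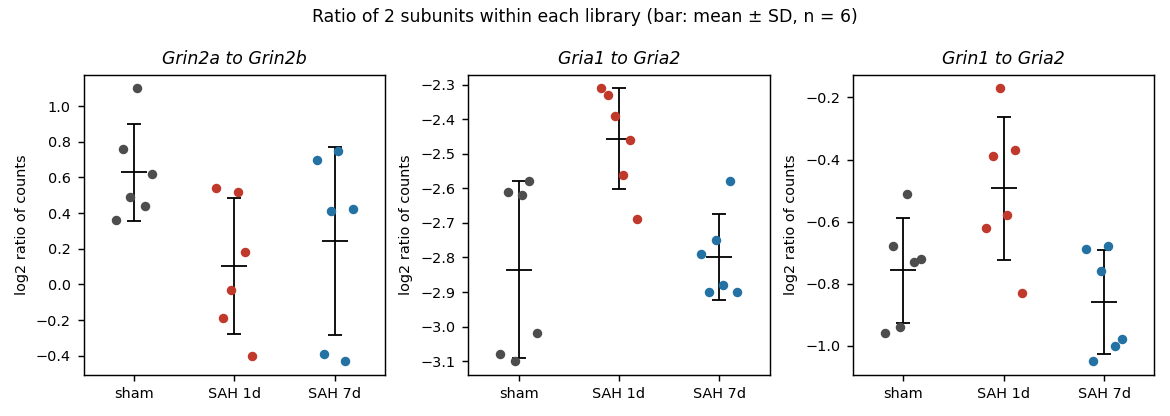
Log2 ratio of the counts of 2 subunits within each library (vertical axes), by group. Points are libraries and bars are the mean ± SD of 6. For Gria1 to Gria2 the SAH 1d mean is -2.46, above -2.84 in sham and -2.80 at SAH 7d, and the sham points form 2 sets.

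Auxiliary and trafficking proteins carry AMPA receptors to the synapse and hold them there. Of 19 measured genes of this kind 9 were lower at SAH 1d and none higher, with a median log2 fold change of -0.32. The count was 6 to 9 with 1 library left out and 1 with all 18 libraries in 1 fit. In that fit 953 of all genes were lower, against 1936 in the main test. Of all tested genes, 10.5% were lower at SAH 1d and 14.9% higher. The largest falls were Cacng8 (-0.70), which encodes the regulatory subunit TARP gamma-8, Frrs1l (-0.68), needed for AMPA receptor assembly, and Cacng3 (-0.65), another TARP. Nptx2, a secreted protein that clusters AMPA receptors, was at 1.89 and did not pass (edgeR adjusted p = 0.0945). Its libraries varied widely at SAH 1d, at 330 ± 558 CPM (SD, n = 6) against 89.7 ± 17.0 in sham. Of 24 postsynaptic scaffold and kinase genes 17 were lower, with a median of -0.50. With 1 library left out 15 to 18 were lower, and with all 18 libraries in 1 fit 6. Camk2a, the kinase subunit that potentiates synapses, was at -0.91, Camk2n1, an inhibitor of that kinase, at -0.84, and Lrrtm3 at -0.81. Homer3, a scaffold of metabotropic receptors, rose by 0.87 (edgeR adjusted p = 0.0142) against this direction.

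Kainate and metabotropic receptors also respond to glutamate. At SAH 1d, 10.5% of all tested genes, 1936 in number, were lower and 14.9% higher. Without SAH 1d-3 2406 genes were lower, and with all 18 libraries in 1 fit 953 were. Of 10 genes that encode kainate and delta receptors, their partners and the NMDA subunit Grin3b, 4 were lower (4 to 5 with 1 library left out, 0 with all 18 libraries in 1 fit), among them Neto1 (-0.67) and Neto2 (-0.51), which encode auxiliary proteins of kainate receptors. Grin3b was at 2.42 ± 0.89 CPM in sham and 4.11 ± 1.52 at SAH 1d (SD, n = 6) and did not pass the edgeR test (adjusted p = 0.0938). Of 7 metabotropic receptor genes only Grm7, a presynaptic receptor, was lower (-0.62, edgeR adjusted p = 0.00802). Without SAH 1d-3, 4 of the 7 were lower and 1 higher, and with all 18 libraries in 1 fit none was lower. The median was -0.38 in both lists.

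Other genes set the ligands and the editing of the receptors or repress neuronal genes. Among 8 tested enzymes and carriers of D-serine and kynurenine, Aadat, which makes the NMDA receptor antagonist kynurenic acid, rose by 0.80 (edgeR adjusted p = 0.00329), no gene fell, and the median was 0.05. Of the 4 genes of RNA editing and the REST repressor, Rest, which represses neuronal genes, rose by 1.02 (adjusted p = 0.00238), from 3.97 ± 0.695 to 8.07 ± 2.44 CPM (SD, n = 6), and the editing enzymes did not pass. Each list thus had 1 higher gene, where 14.9% of all genes were higher. Without SAH 1d-3 each of these lists had 1 higher and 1 lower gene, the postsynaptic list had 18 lower and 1 higher gene and the auxiliary list 9 lower. Among all 18444 genes, 2406 were lower and 2846 higher in that set. In the comparisons with SAH 7d, with all libraries, no gene of these 6 lists passed the test.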

How the data were processed

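RNA from 18 rat cortices was sequenced, 1 library per rat and 6 rats per group. The authors deposited counts as whole numbers per gene and library, with no normalization, and FPKM values that the authors scaled to transcript length and mapped reads. The study's methods name the rat genome Rnor_6.0, whereas the submitters' processing notes list fastp, HISAT2, DESeq2 1.16.1 and a mouse build, mm9. Since the identifiers are rat genes, no coordinate of the files is printed. Replicates were not pooled, and columns were matched to groups by the deposited sample descriptions.

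Counts were tested with edgeR 4.0.16 (R 4.3.3). Genes were kept by filterByExpr over all 18 libraries, which left 18444, of which 3100 are loci outside the annotation. After TMM normalization, the quasi-likelihood test compared 12 libraries at a time, with two-sided p-values adjusted by Benjamini-Hochberg over all tested genes. A gene counted as changed at an adjusted p under 0.05. CPM values use TMM library sizes, and log2 CPM a prior count of 2. Intervals are 1.96 SE on either side. Ratios of counts within a library were compared by exact permutation in Python 3.11.15 with numpy 2.4.6. The steps were tested on simulated data.

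The members were fixed by their subunit names, without use of these comparisons. The 6 pathway lists and the 11 marker lists were chosen with earlier results of these data known. The counts of members and of list genes are descriptions. Of 142 listed genes 129 were tested. Of the others, Rcor1 has several rows, Dao, Kynu, Ido1, Tdo2 and S100a8 were filtered out, and Grm4, Shisa9, Gsg1l, Lrrtm1, Neurod2, Ccr2 and Pecam1 were not analysed here. Named genes are the 10 members, up to 3 largest increases and decreases among the changed genes of each pathway list at SAH 1d, and the 5 genes most correlated with Gria2 and with Grin1. A gene that this rule names is not reported here. Nptx2 and Grin3b are named outside this rule, and named marker genes were chosen after their values were seen.

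As alternatives, DESeq2 size factors, the DESeq2 1.42.0 Wald test, limma 3.58.1 voom with quality weights, no filter, at least 10 counts in every library, all 18 libraries in 1 fit, the replicate number as a block and limma on log2(FPKM + 1) and log2(FPKM + 0.1) were run. The FPKM fits kept genes with a mean of at least 0.5, or all genes. Each library was left out in turn, as were SAH 1d-3 and SAH 7d-5 together. Total counts were 27270026 to 38271014 per library, and the errors given are those between the libraries of different rats, which include counting noise. No libraries were duplicates.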

Additional observations from a re-analysis of the deposited data

Results flagged for a closer look

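In 39 groups of 6 CPM or ratio values, Dixon's criterion marked 11 in which 1 library lay far from the other 5, where chance marks about 1 in 20. In SAH 7d-5 it marked 6 low values, for Gria1 (39.8 CPM, next 82.7), Gria2 (238, next 606), Gria3 (111, next 309), Gria4 (57.0, next 144), Grin2b (4.48, next 8.41) and Grin2c (24.8, next 41.0). In SAH 1d-3 it marked 2, for Gria1 (38.6, next 75.0) and Grin2d (4.18, next 7.14). In sham-1 it marked low values of Gria3 (282, next 369) and Grin1 (326, next 424) and a high value of Grin2c (70.7, next 50.1). The marks of 1 library are not separate observations, since all its values come from 1 rat.

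Sham-1 also had the highest striatal, astrocyte, oligodendrocyte and microglial means of the sham group, at 7.5, 8.30, 10.2 and 5.62 log2 CPM, and the lowest pan-neuronal mean, 9.10. The part of this tissue make-up in its subunit values was not tested.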

How the results depend on the processing

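Gria2, Gria3 and Gria4 were lower at SAH 1d with an adjusted p under 0.05 in all 23 alternatives, and no subunit was called in SAH 7d versus sham in any. Of the 10 subunits, 5 were lower at SAH 1d, and 3 were with all 18 libraries in 1 fit, 3 with limma on log2(FPKM + 1) without a filter, 7 with voom, which added Gria1 and Grin3a, and 4 to 6 with 1 library left out. Grin2a lost its call in 10 of the 23 alternatives. In SAH 7d versus SAH 1d the count of 0 became 3 with voom and 3 without both libraries that stand apart, and 0 to 3 with 1 library left out, reaching 3 without SAH 7d-5. Over all genes, SAH 1d versus sham gave 4684 calls and 2462 with all 18 libraries in 1 fit. SAH 7d versus sham gave 0, but 459 with the DESeq2 Wald test, 9 with all 18 libraries, 2 with voom, 1 with limma without a filter and up to 3 with 1 library left out. SAH 7d versus SAH 1d gave 252, but 1012 with DESeq2, 2718 with voom, 779 with all 18 libraries, 403 to 474 with limma on FPKM, 2512 without both libraries, and 102 to 1545 with 1 left out.

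Signs turned for small values only. Grin2d at SAH 1d was 0.00 without both libraries and -0.15 to 0.00 with 1 library left out. In SAH 7d versus SAH 1d, Grin2b was 0.06 with voom, 0.03 without both libraries and -0.12 to 0.08 with 1 left out, and Grin2a was 0.00 with limma on log2(FPKM + 0.1). Gria1 to Gria2 in SAH 7d versus sham was -0.01 without both libraries and -0.02 to 0.09 with 1 left out. The cause was not tested.

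The ratio calls did not pass without both libraries, with fewer splits to permute. The differences were 0.36 and -0.37 for Gria1 to Gria2 in SAH 1d versus sham and SAH 7d versus SAH 1d (adjusted exact p = 0.123 and 0.0714). For Grin1 to Gria2 the difference was -0.27 (adjusted exact p = 0.125). For Gria1 to Gria2 in SAH 7d versus SAH 1d, the remaining libraries of the groups did not overlap. Its p was thus the smallest that these splits allow, and it could not pass the adjustment by itself. With 1 library left out the 3 differences were 0.33 to 0.43, -0.39 to -0.31 and -0.43 to -0.30, and Grin1 to Gria2 in SAH 1d versus sham was 0.20 to 0.33. All 3 calls held with FPKM ratios and with 0.5 added to both counts, but these settings could hardly change them. The lengths behind FPKM are nearly the same in every library, and the counts of these genes are far above 0.5.

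The replicate numbers do not pair the rats, since same-numbered libraries correlated at -0.25 to 0.20 in their deviations and at most 1 of the libraries in a comparison correlated best with its own number. With the replicate number as a block, the calls of all 10 subunits stayed as they were in each comparison. SAH 7d versus SAH 1d fell from 252 to 29 genes. The ratio differences of 0.38, -0.34 and -0.37 had adjusted exact p of 0.0938 each from 64 sign flips. For each of these differences, all same-numbered pairs differed in the same direction. Each p was thus the smallest that the flips allow, and these ratios could not pass the adjustment by themselves. The loss of these calls was set by the number of flips, and no conclusion is drawn from it.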
